A study of Mus musculus with 24 samples.

Results

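Late eosinophils of the bone marrow in interleukin 33 (IL-33) induced eosinophilia, sorted as stage IV, were set against steady state eosinophils sorted as stage III. They made up 6 of the 24 libraries of the series, 3 in each group, and were chosen by label because both groups had left the cell cycle and kept transcripts of Prg2, the major basic protein of the eosinophil granule. All mice were wild type C57BL/6. The IL-33 mice had received 400 ng of IL-33 into the peritoneum each day for 7 days, and the labels name no treatment for the steady state mice. Each library was made from cells of 3 pooled mice, and the design text calls the triplicates biological. In both groups, magnetic beads took out the cells that bore CD45R, NK1.1, Ly6G or CD90.2, and the markers of the sort were CD200R3, CD117, CD55, CD29, Siglec-F, F4/80 and Pir-A/B, with a stated purity of at least 95%. The 2 groups differ in condition and in stage label at once, and these cannot be told apart. In bulk libraries, fewer cells of a type and less RNA per cell cannot be told apart either.

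IL-33 is an alarmin released by damaged barrier cells. It acts through the receptor ST2, encoded by Il1rl1, which pairs with the accessory chain Il1rap and signals through MyD88 and NF-kB. Eosinophils arise in the marrow from progenitors that depend on GATA1, GATA2 and C/EBPε, mature under interleukin 5, and signal from the interleukin 5, interleukin 3 and GM-CSF receptors, which share the β chain Csf2rb, through JAK2 and STAT5. STAT5 induces its own feedback inhibitors, the Socs and Cish genes, and the survival genes Pim1 and Bcl2l1.

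The promoters of 3 genes of cytokine signalling that were higher in IL-33 stage IV cells and whose windows hold the STAT consensus were as follows, given since several of that pathway's genes differed in the same direction. Windows run from 250 bases before to 50 bases after the start of the gene in RefSeq on GRCm38.p6, and capitals mark the consensus TTCNNNGAA, a palindrome that reads alike on both strands.
Cish, chr9:107296409-107296708, plus strand: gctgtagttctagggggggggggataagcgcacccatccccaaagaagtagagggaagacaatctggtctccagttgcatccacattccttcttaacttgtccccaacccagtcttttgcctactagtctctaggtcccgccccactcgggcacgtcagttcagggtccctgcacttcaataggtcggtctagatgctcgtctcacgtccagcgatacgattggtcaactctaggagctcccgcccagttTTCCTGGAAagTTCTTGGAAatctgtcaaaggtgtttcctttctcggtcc
Csf2rb2, chr15:78305672-78305971, minus strand: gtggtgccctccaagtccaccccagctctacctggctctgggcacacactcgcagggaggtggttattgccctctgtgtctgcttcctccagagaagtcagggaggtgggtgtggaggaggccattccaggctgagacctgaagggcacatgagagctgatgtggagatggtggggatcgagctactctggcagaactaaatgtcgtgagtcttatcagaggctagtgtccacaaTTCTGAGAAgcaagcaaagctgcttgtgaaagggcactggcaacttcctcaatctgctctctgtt
Il1r2, chr1:40085843-40086142, plus strand: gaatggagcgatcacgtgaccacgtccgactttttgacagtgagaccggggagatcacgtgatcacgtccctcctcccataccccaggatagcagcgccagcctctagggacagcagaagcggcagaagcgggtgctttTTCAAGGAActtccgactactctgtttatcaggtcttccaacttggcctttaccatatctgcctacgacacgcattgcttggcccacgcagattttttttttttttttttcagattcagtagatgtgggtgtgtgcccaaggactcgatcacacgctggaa
Cish holds the consensus at the first base of the transcript and again from base 12, as TTCCTGGAA and TTCTTGGAA. Csf2rb2 holds TTCTGAGAA from base -15 and Il1r2 holds TTCAAGGAA from base -111, counted back from the start. Over all genes tested, 10049 had a window in the RefSeq table and 8.4% of those held the consensus. The share was 9.37% among 630 genes called higher in IL-33 stage IV cells and 9.63% among those called lower, both near the background. Of the 6 STAT5 pathway genes called higher that had a window, Cish alone held it. A match is only a run of letters and was not tested as a binding site.

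Gene counts summed to between 11571247 and 13491834 per IL-33 stage IV library and between 9649974 and 11813397 per steady state stage III library. Reads assigned to no gene made up 11.8% to 16.6% of counted reads in the IL-33 libraries and 18.8% to 22.5% in the steady state ones, and their part in the differences was not tested. In steady state, the third pool of stage III stood apart in stress genes: Hspa5, the main ER chaperone, had 587, 539 and 491 CPM (gene counts scaled to a common library size) in IL-33 stage IV, against 1240, 682 and 4864 CPM in steady state stage III. Atf3, a stress-induced transcription factor, showed the same split, with 13.2, 13.8 and 51.7 CPM in IL-33 stage IV against 33.6, 51.9 and 503 CPM in steady state stage III. Hspa5 passed the test as lower with all libraries (log2 fold change -2.07, SE 0.55, adjusted p = 0.0161) and lost the call without that pool (adjusted p = 0.281) and without the second or the third IL-33 pool. Results that rest on that pool are given with and without it. The libraries numbered 3 were also highest for Hspa5 in steady state stages I, II and IV, at 6604, 5262 and 3175 CPM. Their genes of the NF-kB pathway summed to 7526, 7480 and 9464 CPM there, against at most 3769 CPM in the libraries numbered 1 and 2. They enter the levels given for steady state stage IV and the spread estimated over all groups.

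The values that chose the groups held in all 6 libraries. Their sums and levels are given without a test, and the calls within these lists are description only. The 34 genes of G2 and mitosis summed to 943, 989 and 768 CPM in IL-33 stage IV and to 1166, 920 and 904 CPM in steady state stage III, whereas IL-33 stage III cells, one label earlier, lay between 6938 and 8205 CPM. The 35 genes of S phase summed to between 1048 and 1373 CPM in IL-33 stage IV and between 1155 and 1591 CPM in steady state stage III, against 5012 to 5769 CPM in IL-33 stage III. Both groups therefore sat far below the cycling IL-33 stage III cells, and the ranges of their sums overlapped each other in both lists. The single genes were less alike. Of the 35 genes of S phase, 29 had estimates below 0 in IL-33 stage IV, with a median log2 fold change of -0.63. In that list 7 were called lower and 1 higher. The higher one was Rfc2, the largest part of the S phase sum in each IL-33 stage IV library. Of the 34 genes of G2 and mitosis, 24 had estimates below 0, and 3 were called lower and 1 higher. Against the direction of most of the G2 and mitosis list, Kif23, a kinesin of the midbody in cell division, was higher. It had 154, 163 and 187 CPM in IL-33 stage IV against 23.1, 20.6 and 8.59 CPM in steady state stage III. Mki67, the common proliferation marker, was at 51.2, 43.4 and 35.8 CPM in IL-33 stage IV and at 41.9, 77.2 and 62.6 CPM in steady state stage III. Prg2 was at 10100, 11900 and 9495 CPM in IL-33 stage IV and at 12200, 7417 and 12130 CPM in steady state stage III. The levels of Epx, the eosinophil peroxidase, did not overlap: 5997, 6901 and 4504 CPM in IL-33 stage IV against 3145, 1477 and 3485 CPM in steady state stage III. The 7 granule genes together summed to between 18120 and 24180 CPM in IL-33 stage IV and between 13610 and 22650 CPM in steady state stage III, against 399 to 1247 CPM in steady state stage IV. In both chosen groups the granule transcripts thus lay far above those of the final steady state stage.

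**Figure D1:**
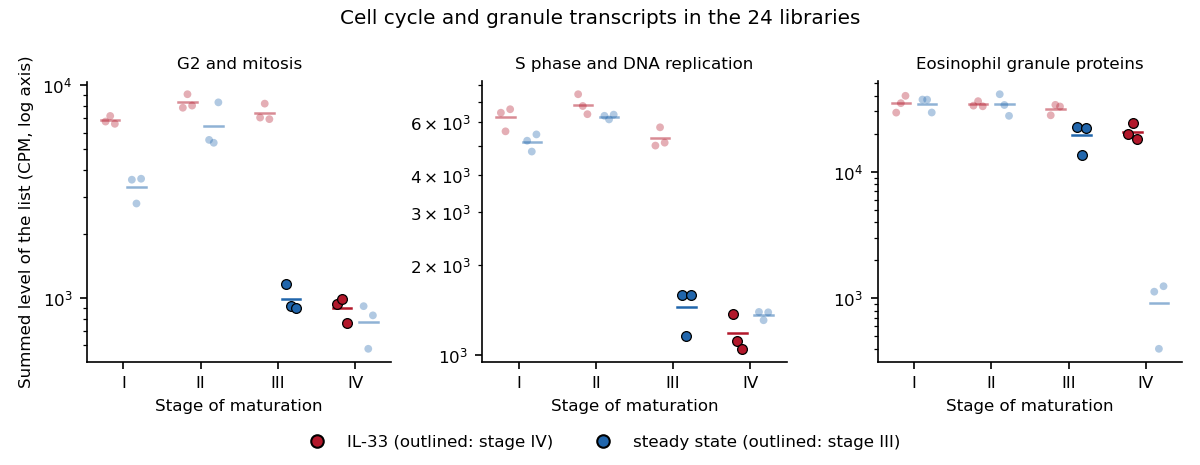
Summed level (CPM, log axis) of genes of G2 and mitosis, of S phase and of eosinophil granule proteins in each of the 24 libraries by stage, with IL-33 in red left of steady state in blue, 1 point per library and a bar at the group mean. IL-33 stage IV (outlined red, granule sum 18120 to 24180 CPM) lies beside steady state stage III (outlined blue, 13610 to 22650 CPM) in all 3 lists, and apart from IL-33 stage III in the cycle lists.

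Sorted cells carried the transcripts that define eosinophils in both groups. Siglecf, the sort marker Siglec-F, had 693, 805 and 631 CPM in IL-33 stage IV and 666, 494 and 276 CPM in steady state stage III, with overlapping groups and no call (adjusted p = 0.33). Ccr3, the eotaxin receptor acquired late in maturation, had 1400, 1585 and 1646 CPM in IL-33 stage IV against 562, 1025 and 394 CPM in steady state stage III. The Ccr3 levels did not overlap, yet the test gave a log2 fold change of 1.23 (SE 0.55) with adjusted p = 0.163. This miss depends on the fit: Ccr3 was called under 4 of the 17 alternatives, among them limma-voom with the pool as a random effect (adjusted p = 0.00365) and the fit of the 6 libraries alone (adjusted p = 0.0464). Steady state stage IV reached 1572 to 2243 CPM of Ccr3, so on this maturation gene the IL-33 cells lay nearer to the last steady state stage than to stage III, a gap the rule did not use. Itgax (CD11c) was low in both, at 1.74, 1.16 and 3.64 CPM in IL-33 stage IV and 0.243, 0 and 0.318 CPM in steady state stage III, against 21.6 to 39.3 CPM in steady state stage IV. Itgam (CD11b) was at 1093, 1133 and 1067 CPM in IL-33 stage IV and 1528, 1387 and 917 CPM in steady state stage III (adjusted p = 0.769).

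Of 12743 genes tested, 1382 (10.8%) passed an adjusted p of 0.05, 803 (6.3%) higher and 579 (4.54%) lower in IL-33 stage IV. The shares of 6.3% and 4.54% are the background for every count of list members given below. Without the second IL-33 pool the count was 858. The median log2 fold change over all genes was -0.02. Outside the cell cycle and granule lists, 800 genes (6.28%) were higher and 569 (4.47%) lower. The levels of the groups did not overlap for 1297 of the called genes (93.8%), and for 28.2% of all genes tested. Of the 803 genes called higher, 530 (66%) had all 3 IL-33 stage IV libraries above all 6 libraries of steady state stages III and IV, against 7.97% of all genes. Of the 579 called lower, 265 (45.8%) lay below all 6, against 4.85% of all genes. For the remaining called genes the IL-33 stage IV libraries did not all lie outside the span of those 6. The calls, the lack of overlap and these places share the stage III libraries. The excess of called genes over all genes was thus partly fixed in advance, and the counts are a description.

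**Figure D2:**
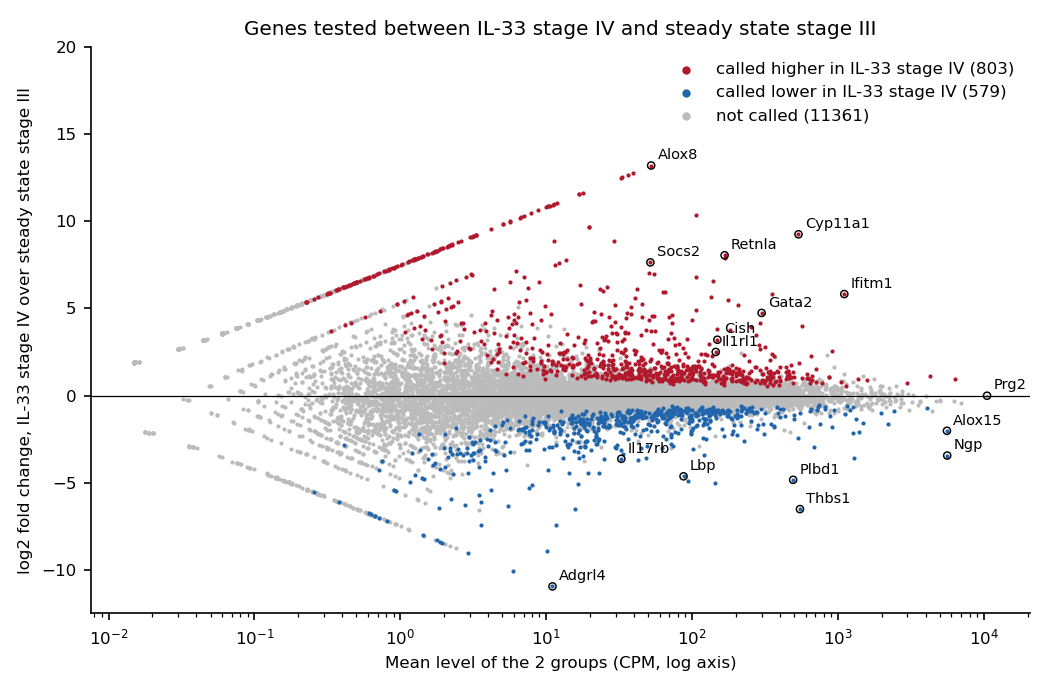
Log2 fold change of IL-33 stage IV over steady state stage III against the mean level of both groups (CPM, log axis) for the genes tested, with 803 genes called higher in red, 579 called lower in blue and the rest grey. The straight upper and lower edges are genes with no counts in 1 group, whose fold change is set by the prior count. Prg2, which helped to choose the groups, lies at -0.01.

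Several of the largest rises were genes with no count in any steady state stage III library, so that only a lower bound of the fold can be given, against a floor of 3 counts over the group. Alox8, the 8-lipoxygenase of the mouse (chromosome 11, 69183932 to 69197843, minus strand, GRCm38), had 132, 106 and 76.7 CPM in IL-33 stage IV and 0 in all 3 steady state stage III libraries, at least 919-fold higher (adjusted p = 4.42e-05). Slc6a4, the serotonin transporter, had 102, 67.0 and 66.9 CPM in IL-33 stage IV against 0 in steady state stage III, at least 688-fold higher (adjusted p = 5.29e-05). Its level in IL-33 stage III was at most 0.321 CPM, so within IL-33 it appeared at stage IV. Nov, a secreted matricellular protein, was at least 587-fold higher, and Grb7, a signalling adaptor, at least 575-fold. Further leading rises were Slc6a9, a glycine transporter, Plxdc2, Tmem158, Acsbg1, an acyl-CoA synthetase, and Rgs5, a regulator of G protein signalling, at least 197-fold to 315-fold higher, with adjusted p between 1.1e-06 and 0.0066. All of these were at 0 in steady state stage III, and Plxdc2 was at 0 in all 12 steady state libraries.

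The leading falls included receptors and matrix genes. Adgrl4, an adhesion receptor, had no count in any IL-33 stage IV library, against 6.07, 37.8 and 22.4 CPM in steady state stage III, and was at least 243-fold lower (adjusted p = 1.98e-05). Srgap1, a GTPase activating protein, had 0, 0.0894 and 0 CPM in IL-33 stage IV against 22.6, 21.95 and 16.2 CPM in steady state stage III, a ratio of 654 with a 95% counting interval of 117 to 25900. Thbs1, the matrix protein thrombospondin 1, had 10.1, 7.69 and 17.7 CPM in IL-33 stage IV against 631, 2053 and 576 CPM in steady state stage III (log2 fold change -6.52, SE 1.16, adjusted p = 0.000693). It was also high in steady state stage IV, at 344 to 805 CPM, and low in IL-33 stage III, at 3.02 to 30.3 CPM. Lbp, the lipopolysaccharide binding protein, had 8.402, 5.72 and 6.18 CPM in IL-33 stage IV against 207, 145 and 153 CPM in steady state stage III (log2 fold change -4.63, SE 0.39, adjusted p = 7.47e-08). Plbd1, a phospholipase B-like granulocyte protein, had 27.4, 29.2 and 43.5 CPM in IL-33 stage IV against 938, 861 and 1061 CPM in steady state stage III (log2 fold change -4.84, SE 0.73, adjusted p = 0.000111). Hrh2, the histamine H2 receptor, was 175-fold lower and Fcrl1, an Fc receptor-like protein, 90.1-fold lower (adjusted p = 8.26e-05 and 0.00555). Sntb1, a syntrophin, was 34-fold lower but lost the call without the third IL-33 pool (adjusted p = 0.0573). The groups did not overlap for any of these genes.

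The receptors for alarmins split by gene. Il1rl1, the IL-33 receptor ST2 (chromosome 1, 40429570 to 40465415, plus strand), had 220, 210 and 311 CPM in IL-33 stage IV against 61.0, 31.1 and 38.9 CPM in steady state stage III, a log2 fold change of 2.50 (SE 0.33, adjusted p = 2.75e-05). All IL-33 stage IV libraries lay above all 12 steady state libraries, the highest of which had 102 CPM. Il1r2, the decoy receptor of interleukin 1, had 275, 323 and 239 CPM in IL-33 stage IV against 26.2, 5.15 and 27.5 CPM in steady state stage III (log2 fold change 3.83, SE 0.58, adjusted p = 0.000115). Il17rb, the receptor of interleukin 25, went the other way, with 3.67, 6.61 and 4.37 CPM in IL-33 stage IV against 79.9, 39.4 and 62.6 CPM in steady state stage III (log2 fold change -3.63, SE 0.39, adjusted p = 1.39e-06). In steady state stage IV, Il17rb was at 0.686 to 1.48 CPM, below the IL-33 cells. Crlf2, the TSLP receptor chain, was 2.36-fold higher (adjusted p = 0.0261), a call lost without the first or the third steady state pool or without the second or the third IL-33 pool (adjusted p up to 0.12). Of the 13 receptors of this list tested, 3 were higher and 4 lower, the other 3 being Il1rap, Il13ra1 and Il18rap, named here after their values were seen. Their adjusted p values were 0.0472, 0.0448 and 0.049, and with each of the 6 libraries left out in turn 1 or 2 of the 4 lower calls were left, Il17rb among them.

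The receptors for interleukin 5, interleukin 3 and GM-CSF also moved in both directions. Il5ra, the chain specific for interleukin 5, had 79.9, 82.6 and 146 CPM in IL-33 stage IV against 326, 316 and 353 CPM in steady state stage III (log2 fold change -1.69, SE 0.32, adjusted p = 0.00129). Csf2rb, the common β chain (chromosome 15, 78325752 to 78353847, plus strand), had 498, 639 and 534 CPM in IL-33 stage IV against 268, 193 and 171 CPM in steady state stage III (log2 fold change 1.40, SE 0.27, adjusted p = 0.00151). The specific chain was thus lower and the shared chain higher, with no overlap in either. Csf2rb2, the mouse β chain that serves interleukin 3, was 2.2-fold higher (adjusted p = 0.0212), and Il3ra was 2.97-fold higher (adjusted p = 0.0137). Both are less firm: Csf2rb2 lost the call without the first or the third steady state pool or the first or the second IL-33 pool (adjusted p up to 0.103), and Il3ra without the third steady state or the second IL-33 pool (up to 0.0737). Csf2rb and Csf2rb2 are near-identical neighbours, so reads may be split between them. In the list of 17 growth factor receptors 4 were higher and 1 lower, the fourth rise being Csf1r, the M-CSF receptor, at 488, 543 and 551 CPM in IL-33 stage IV against 231, 295 and 244 CPM in steady state stage III (adjusted p = 0.03). Csf1r lost the call in turn without the first or the third steady state pool or any one IL-33 pool (adjusted p up to 0.0945). Without the third steady state or the second IL-33 pool 1 of those 4 rises was called, and without the first steady state or first IL-33 pool 2.

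Downstream of those receptors, 7 of 18 STAT5 pathway genes tested were higher and 0 lower, with a median log2 fold change of 0.76 against -0.02 over all genes. The 7 were Jak2, Socs1, Socs2, Cish, Pim1, Pim2 and Bcl2l1. Socs2, a feedback inhibitor, had 113, 115 and 81.0 CPM in IL-33 stage IV against 1.58, 0 and 0 CPM in steady state stage III (log2 fold change 7.64, SE 1.01, adjusted p = 2.67e-05). Socs1 had 178, 118 and 101 CPM in IL-33 stage IV against 12.5, 8.80 and 11.6 CPM in steady state stage III (log2 fold change 3.59, SE 0.47, adjusted p = 2.33e-05). Cish, whose promoter with its pair of STAT motifs is printed above, had 285, 311 and 211 CPM in IL-33 stage IV against 44.6, 26.2 and 17.1 CPM in steady state stage III (log2 fold change 3.20, SE 0.76, adjusted p = 0.00798). None of these 3 overlapped, and in IL-33 stage III they ranged from 28.4 to 43.5, from 46.8 to 99.2 and from 61.4 to 119 CPM in that order, below IL-33 stage IV. Jak2, the kinase of the pathway, had 275, 314 and 288 CPM in IL-33 stage IV against 76.4, 78.7 and 104 CPM in steady state stage III (adjusted p = 0.000189). Pim1 was 3.13-fold and Pim2 3.88-fold higher (adjusted p = 0.00666 and 0.000851). Pim1 reached 543, 573 and 696 CPM in IL-33 stage IV, inside the range of steady state stage IV (485 to 830 CPM), so its level was not beyond what steady state cells reach. Bcl2l1, the survival protein Bcl-xL, was 3.02-fold higher (adjusted p = 0.0114) and lost the call, with adjusted p = 0.064, when the third steady state pool was left out.

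**Figure D3:**
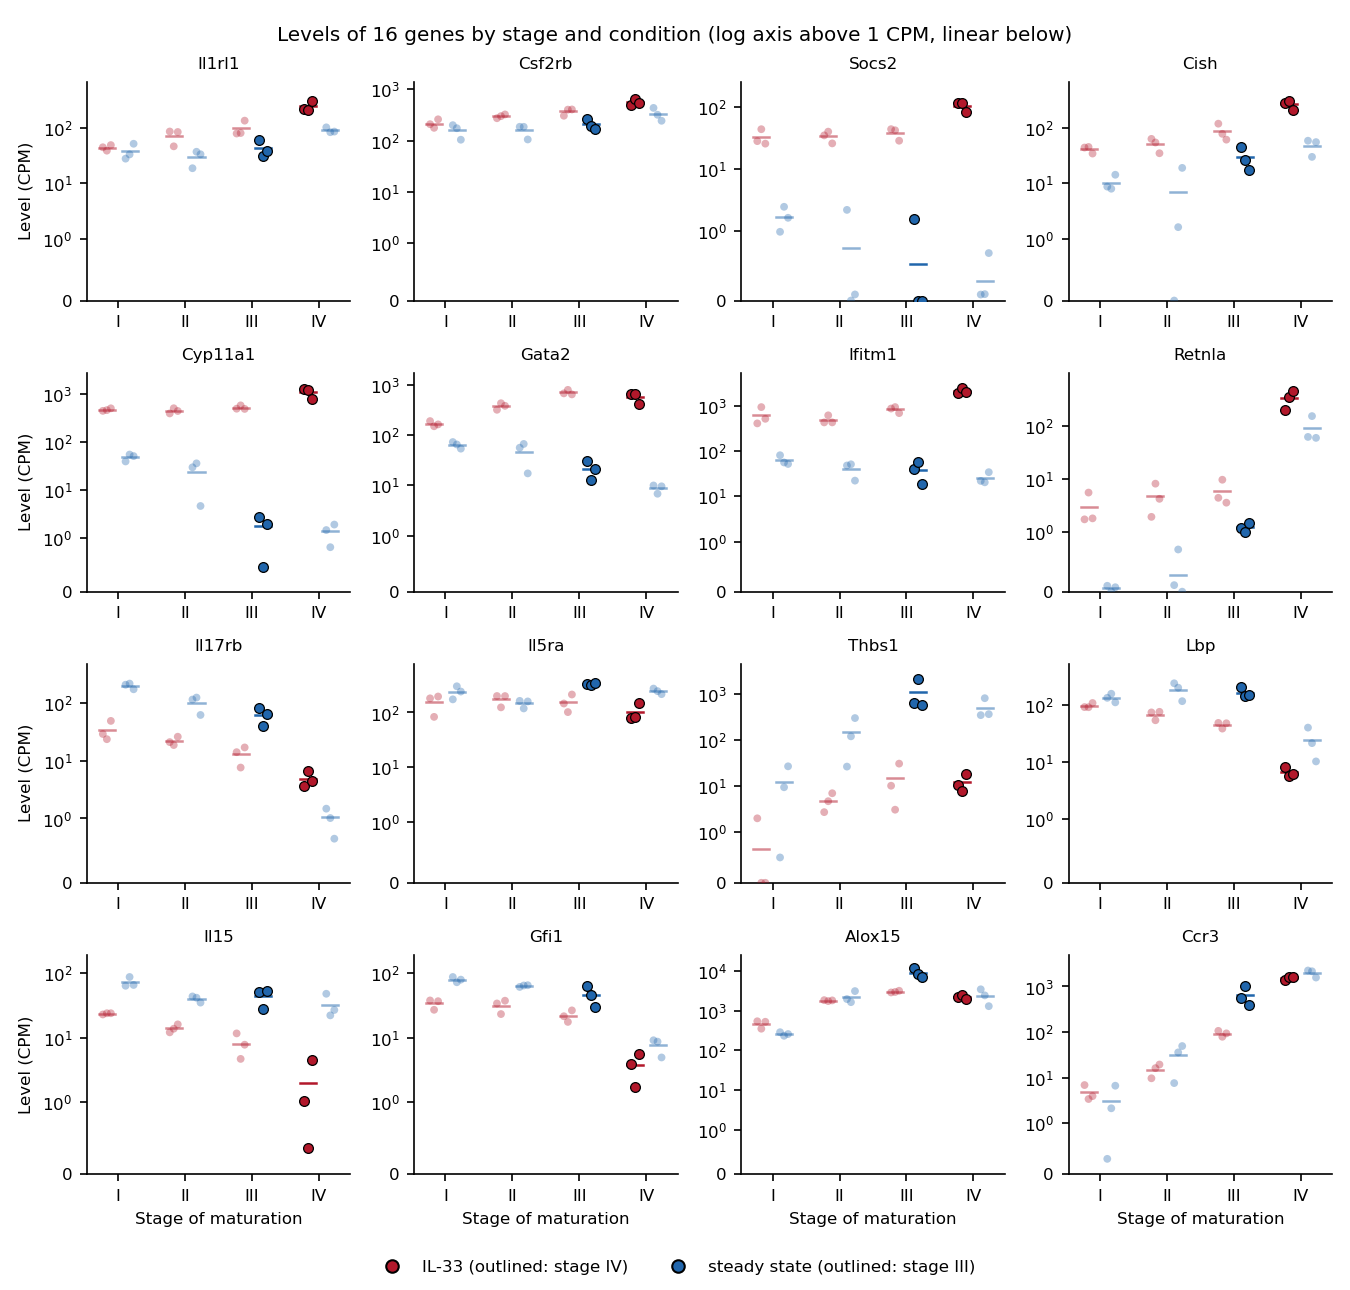
Levels of 16 genes in CPM (log axis above 1, linear below) by stage, with IL-33 in red left of steady state in blue, 1 point per library and a bar at the group mean; IL-33 stage IV and steady state stage III are outlined. Socs2, Cyp11a1 and Ifitm1 lie above all 12 steady state libraries at every stage of IL-33, while Alox15 peaks in steady state stage III, where it reaches 7100 to 11540 CPM.

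On the NF-kB side of the IL-33 receptor, 0 of 33 pathway and target genes tested passed with edgeR's quasi-likelihood test, and their median log2 fold change was -0.27. Of those 33, 5 had an unadjusted p under 0.05, 2 were called by DESeq2 and 1 by limma-voom. Their summed level was 3335, 3296 and 3253 CPM in IL-33 stage IV against 3467, 3343 and 7458 CPM in steady state stage III, where the third pool stood apart. Without the third pool of every steady state stage 1 was higher and 1 lower, without that of stage III alone 1 was lower, and without the first pool of stage III 1 was higher. Among survival genes, 4 of 27 members of the Bcl2 family and apoptosis list were higher and 0 lower. Bcl2a1a had 75.2, 123 and 106 CPM in IL-33 stage IV against 0.729, 1.60 and 0 CPM in steady state stage III (log2 fold change 7.03, SE 0.97, adjusted p = 4.42e-05). Bcl2a1b had 79.3, 114 and 113 CPM in IL-33 stage IV against 3.04, 8.35 and 1.80 CPM in steady state stage III (log2 fold change 4.54, SE 0.61, adjusted p = 2.75e-05). These are near-identical antiapoptotic copies, so that the split between them is uncertain while both were above the steady state stage III range. Bcl2 itself had 31.1, 28.0 and 28.5 CPM in IL-33 stage IV against 22.3, 16.2 and 4.45 CPM in steady state stage III and was not called (adjusted p = 0.135), though limma-voom called it (adjusted p = 0.0407).

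Secreted mediators differed in both directions. Ccl9, a chemokine for CCR1-bearing cells, had 713, 1078 and 1433 CPM in IL-33 stage IV against 30.6, 106 and 65.3 CPM in steady state stage III (log2 fold change 4.00, SE 0.53, adjusted p = 2.67e-05), and steady state stage IV overlapped it at 427 to 1055 CPM. Csf1, encoding M-CSF, had 221, 190 and 213 CPM in IL-33 stage IV against 32.7, 39.3 and 45.6 CPM in steady state stage III (log2 fold change 2.41, SE 0.27, adjusted p = 2.05e-06). Steady state stage IV held 139 to 228 CPM of Csf1, a range that contains all 3 IL-33 stage IV libraries. Il6 had 58.7, 60.6 and 61.3 CPM in IL-33 stage IV against 9.11, 10.9 and 8.38 CPM in steady state stage III (log2 fold change 2.67, SE 0.43, adjusted p = 0.000262). The IL-33 stage IV libraries of Il6 were close together (SD 1.33 CPM, n = 3), and in steady state none of the 12 libraries exceeded 18.7 CPM. Il15, which sustains lymphocytes, had 1.06, 0.357 and 4.55 CPM in IL-33 stage IV against 51.8, 27.8 and 53.2 CPM in steady state stage III (log2 fold change -4.47, SE 0.57, adjusted p = 1.72e-05). It was at 22.2 CPM or more in all 12 steady state libraries, so its level in IL-33 stage IV lay below every steady state stage. Il13 was low but seen in each IL-33 library, at 4.35, 4.74 and 4.55 CPM, against 0 in steady state stage III, at least 40-fold higher (adjusted p = 0.0132). Il4 had 280, 351 and 372 CPM in IL-33 stage IV against 258, 242 and 230 CPM in steady state stage III, and was not called (log2 fold change 0.46, SE 0.24, adjusted p = 0.238). In all, 4 of 25 cytokine genes were higher and 4 lower, the lower count falling to 1 without the second or the third IL-33 pool and to 2 without the first IL-33, first steady state or the third steady state pool. Of 14 chemokine genes 3 were higher, or 1 without the first steady state or the second or the third IL-33 pool. Ccl6 was among those, at 7753, 9100 and 8064 CPM in IL-33 stage IV and 3646, 5267 and 4149 CPM in steady state stage III (adjusted p = 0.0236, up to 0.0945 with a library left out), and steady state stage IV held 5810 to 8641 CPM.

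Enzymes of lipid mediators differed in both directions. Alox15, the 12/15-lipoxygenase (chromosome 11, 70344152 to 70352031, minus strand), had 2169, 2539 and 1918 CPM in IL-33 stage IV against 11540, 8293 and 7100 CPM in steady state stage III (log2 fold change -2.02, SE 0.29, adjusted p = 6.12e-05). Ptgs1, the cyclooxygenase COX-1, had 114, 117 and 91.1 CPM in IL-33 stage IV against 18.6, 18.2 and 15.5 CPM in steady state stage III (log2 fold change 2.63, SE 0.27, adjusted p = 7.27e-07). Steady state stage II held 79.8 to 157 CPM of Ptgs1, a range that contains the IL-33 stage IV libraries, and steady state stage IV 19.6 to 38.4 CPM. Lta4h, which makes leukotriene B4, had 720, 861 and 685 CPM in IL-33 stage IV against 2139, 1319 and 2235 CPM in steady state stage III (log2 fold change -1.33, SE 0.21, adjusted p = 0.000143). Alox15 was at 1298 to 3451 CPM in steady state stage IV, a range that held the IL-33 stage IV libraries, so steady state stage III was the group that stood out. For Lta4h too, the 564 to 869 CPM of steady state stage IV contained the IL-33 stage IV libraries. Ltc4s, the leukotriene C4 synthase, was near the limit of detection, at 5.31, 4.20 and 3.09 CPM in IL-33 stage IV against 0.121, 0.114 and 0 CPM in steady state stage III, a ratio of 55.2 with a 95% counting interval of 15 to 460. In the list of 14 eicosanoid genes 3 were higher and 2 lower, beside 6.3% and 4.54% of all genes tested.

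The transcription factors of the lineage moved unequally. Gata2, active in eosinophil progenitors, basophils and mast cells (chromosome 6, 88193891 to 88207032, plus strand), had 666, 652 and 417 CPM in IL-33 stage IV against 30.5, 12.9 and 21.5 CPM in steady state stage III (log2 fold change 4.74, SE 0.40, adjusted p = 7.47e-08). Its partner Gata1 had 333, 310 and 236 CPM in IL-33 stage IV and 378, 290 and 294 CPM in steady state stage III, with overlapping groups and no call (log2 fold change -0.13, SE 0.30, adjusted p = 0.84). The sign of that Gata1 difference turned without the first steady state or the third IL-33 pool. Runx1 was 5.67-fold higher (105, 113 and 97.0 CPM in IL-33 stage IV against 20.4, 14.8 and 20.4 CPM in steady state stage III, adjusted p = 3.76e-07). Xbp1, required in mice for eosinophil differentiation, was 4.89-fold higher (703, 722 and 390 CPM in IL-33 stage IV against 141, 96.6 and 134 CPM in steady state stage III, adjusted p = 7.56e-07). Gfi1, a transcriptional repressor of granulocyte development, had 3.96, 1.70 and 5.55 CPM in IL-33 stage IV against 62.3, 46.0 and 29.7 CPM in steady state stage III (log2 fold change -3.62, SE 0.38, adjusted p = 1.10e-06). Myb, a progenitor factor, was 4.45-fold lower (40.3, 37.4 and 31.1 CPM in IL-33 stage IV against 207, 108 and 169 CPM in steady state stage III, adjusted p = 1.43e-05). Steady state stage IV held 9.89 to 21.7 CPM of Myb, below the IL-33 stage IV libraries. It held 4.94 to 9.12 CPM of Gfi1, which overlapped them. Cebpe, the granulocyte factor C/EBPε, was at 834, 997 and 901 CPM in IL-33 stage IV and 702, 590 and 591 CPM in steady state stage III, not called (adjusted p = 0.245). Of 36 lineage factors tested 7 were higher and 5 lower, the lower count being 3 without the first or the third steady state or the first IL-33 pool.

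Genes best known from basophils and mast cells were higher as well. Of 13 such markers tested 7 were higher and 1 lower, and the list summed to 4275, 5114 and 3485 CPM in IL-33 stage IV against 1546, 1358 and 1105 CPM in steady state stage III. Cyp11a1, which makes pregnenolone from cholesterol (chromosome 9, 58006411 to 58027023, plus strand), had 1251, 1198 and 768 CPM in IL-33 stage IV against 2.79, 0.457 and 2.02 CPM in steady state stage III (log2 fold change 9.25, SE 0.64, adjusted p = 7.34e-09). Cpa3, the mast cell carboxypeptidase, had 376, 795 and 493 CPM in IL-33 stage IV against 30.7, 39.4 and 23.7 CPM in steady state stage III (log2 fold change 4.15, SE 0.42, adjusted p = 6.66e-07). Cd200r3, an activating receptor that was also one of the sort markers, had 606, 846 and 623 CPM in IL-33 stage IV against 9.59, 21.7 and 5.52 CPM in steady state stage III (log2 fold change 5.82, SE 0.60, adjusted p = 7.56e-07). Cpa3 was higher still in IL-33 stage III (1037 to 1058 CPM), while Cd200r3 was lower there (57.9 to 76.1 CPM). Ms4a2, the β chain of the high-affinity IgE receptor, was 20.3-fold higher, and Itga2b, the integrin CD41 of megakaryocytes and mast cell progenitors, 2.59-fold (adjusted p = 8.60e-06 and 0.00179). Steady state stage I overlapped IL-33 stage IV in the list sum (2813 to 3996 CPM). It also did so for Cpa3 (507 to 850 CPM), Ms4a2 (63.35 to 115.7 CPM) and Itga2b (461 to 622 CPM). Cyp11a1 and Cd200r3 reached at most 54.7 and 0.938 CPM in that stage. The proteases that define basophils were not among the rises. Mcpt8 was at 28.4, 53.2 and 36.5 CPM in IL-33 stage IV and 137, 106 and 72.4 CPM in steady state stage III, below but not called (adjusted p = 0.3). Prss34 was at 0.0966, 3.04 and 14.7 CPM in IL-33 stage IV against 235, 185 and 125 CPM in steady state stage III, called lower (adjusted p = 0.0159) except without the first or the second IL-33 pool (lost also with limma-voom, adjusted p up to 0.157). Fcer1a and Cma1 were the remaining members of the 7 called higher. The mast cell genes Tpsb2, Mcpt4 and Tph1 had too few counts to be tested.

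Neutrophil markers went the opposite way. The 19 genes summed to 14000, 8953 and 9341 CPM in IL-33 stage IV against 29450, 24710 and 28450 CPM in steady state stage III, 5 lower and 0 higher. Ngp, a secondary granule protein, had 1663, 686 and 489 CPM in IL-33 stage IV against 10080, 7415 and 13360 CPM in steady state stage III (log2 fold change -3.44, SE 0.62, adjusted p = 0.000793). Itgb2l was 31.9-fold lower (adjusted p = 0.00141). Ngp and Itgb2l kept their calls with each library left out, whereas Ltf, S100a9 and Lyz2 did not. Leaving out any library but the first IL-33 pool left 2 calls, and leaving out that pool left 6. The first IL-33 pool had the highest sum of its group, and S100a9 had 1076, 158 and 154 CPM in IL-33 stage IV. Of the 19 estimates 15 were below 0 and 4 above, with a median log2 fold change of -1.55. Some defining genes did not fall alike: Ly6g averaged 121 CPM in IL-33 stage IV and 69.5 CPM in steady state stage III, Camp 324 and 314 CPM, and Retnlg 4597 and 5455 CPM, none called. The subunits Cybb and Ncf4 of the phagocyte oxidase were lower among 9 tested, with Cybb at 1070, 1074 and 1143 CPM in IL-33 stage IV against 3284, 2868 and 3853 CPM in steady state stage III (adjusted p = 0.00511). The part of the neutrophil markers in the falls of Plbd1, Cybb and Ncf4, and that of the basophil and mast cell markers in the rises above, was not tested. Erythroid markers summed to 25.01, 4.92 and 13.2 CPM in IL-33 stage IV against 51.7, 82.3 and 190 CPM in steady state stage III. Of 11 tested 4 were lower, or 2 without the third steady state or first IL-33 pool.

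**Figure D4:**
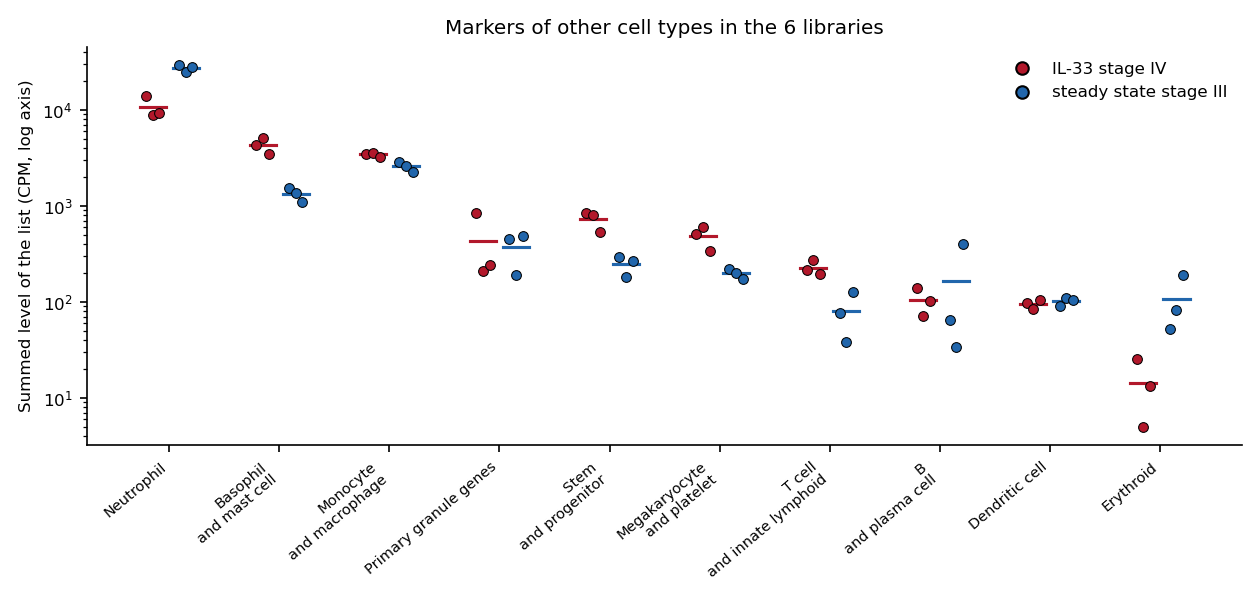
Summed level (CPM, log axis) of markers of other cell types in IL-33 stage IV (red, left) and steady state stage III (blue, right), 1 point per library and a bar at the mean. Neutrophil markers lie lower in IL-33 stage IV (8953 to 14000 CPM against 24710 to 29450 CPM) and basophil and mast cell markers higher (3485 to 5114 CPM against 1105 to 1546 CPM).

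Ribosomal protein genes were higher in IL-33 stage IV as a list. Of 48 tested 29 were higher and 0 lower, the median log2 fold change was 1.07, and the estimate was above 0 for all 48. Their summed level was 19270, 22960 and 22920 CPM in IL-33 stage IV against 9354, 11210 and 11770 CPM in steady state stage III. Rplp1, a stalk protein of the large subunit, had 534, 526 and 595 CPM in IL-33 stage IV against 113, 152 and 144 CPM in steady state stage III (log2 fold change 2.02, SE 0.38, adjusted p = 0.00107), and 212 to 542 CPM in steady state stage IV. Rps19 was 2.52-fold and Rpl14 3.02-fold higher (adjusted p = 0.00147 and 0.00221). The list summed to 13670 to 17430 CPM in IL-33 stage III, and steady state stage IV spanned 12360 to 25520 CPM, where the third pool reached the IL-33 level. The count was 18 without the first steady state stage III pool and 41 without the third pool of every steady state stage. Processed copies of these genes elsewhere in the genome make single members uncertain. Of 34 genes of ribosome assembly 1 was higher and 5 lower, or 3 lower without the third steady state or the second IL-33 pool and 8 without the second steady state pool. This balance is not firm: without the third pool of every steady state stage 5 were higher and 3 lower, and in the fit of the 6 libraries alone 0 were higher and 1 lower. Polr1a, the catalytic subunit of RNA polymerase I, had 9.95, 3.49 and 8.37 CPM in IL-33 stage IV against 32.2, 43.4 and 34.9 CPM in steady state stage III (adjusted p = 0.000124).

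Surface and adhesion genes gave a few strong changes. C3ar1, the receptor of the anaphylatoxin C3a, had 390, 318 and 331 CPM in IL-33 stage IV against 7.77, 11.3 and 4.35 CPM in steady state stage III (log2 fold change 5.47, SE 0.81, adjusted p = 8.79e-05). Gpr183, the oxysterol receptor EBI2, was 2.98-fold higher (adjusted p = 0.00855). Cxcr4, which holds cells in the marrow, was 1.89-fold lower (adjusted p = 0.0154), a call lost without the second steady state or the second or the third IL-33 pool (up to 0.103). Itga2, the integrin CD49b, was 12.7-fold higher (69.9, 58.1 and 65.5 CPM in IL-33 stage IV against 3.64, 10.3 and 1.27 CPM in steady state stage III, adjusted p = 0.00318). Steady state stage IV held 67.5 to 165 CPM of C3ar1 and 33.0 to 48.7 CPM of Itga2. For both genes it lay above steady state stage III and below IL-33 stage IV. Among 32 eosinophil surface receptors 1 was higher and 5 lower, and the lower ones included the inhibitory receptors Clec12a and Siglece. Clec12a had 675, 741 and 748 CPM in IL-33 stage IV against 1497, 1408 and 1664 CPM in steady state stage III and 686 to 1153 CPM in steady state stage IV (adjusted p = 0.000418), and Siglece was 4.01-fold lower (adjusted p = 0.0071). Without the third pool of every steady state stage, 7 of these receptors were called higher.

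Of 32 interferon-stimulated genes 3 were higher and 0 lower, with a list median of -0.31. Over all genes tested, 6.3% were higher and 4.54% lower. Ifitm1, a membrane protein that restricts viral entry (chromosome 7, 140967221 to 140969825, plus strand), had 1982, 2513 and 2029 CPM in IL-33 stage IV against 39.5, 56.9 and 18.98 CPM in steady state stage III (log2 fold change 5.82, SE 0.44, adjusted p = 1.85e-08). Ifitm2 had 497, 730 and 548 CPM in IL-33 stage IV against 110, 117 and 109 CPM in steady state stage III (log2 fold change 2.40, SE 0.29, adjusted p = 6.39e-06). Oas1a overlapped between groups (48.0, 41.0 and 19.7 CPM in IL-33 stage IV against 23.1, 13.3 and 11.0 CPM in steady state stage III, adjusted p = 0.0471) and lost the call under 8 of the 17 alternatives (adjusted p up to 0.181). Both Ifitm genes were above all 12 steady state libraries, whose highest values were 81.7 and 251 CPM, while most of the list was not called.

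Among type 2 and remodelling genes, Retnla encodes RELMα, a secreted protein of alternatively activated macrophages. It had 196, 353 and 450 CPM in IL-33 stage IV against 1.21, 1.03 and 1.49 CPM in steady state stage III (log2 fold change 8.05, SE 0.75, adjusted p = 2.14e-07). Steady state stage IV held 59.3 to 152 CPM and IL-33 stage III 3.61 to 9.72 CPM, so Retnla was a late gene in both conditions and highest in IL-33 stage IV. Cdh1, the adhesion protein E-cadherin, had 64.0, 59.4 and 51.0 CPM in IL-33 stage IV against 0.243, 0.114 and 0 CPM in steady state stage III, a ratio of 511 with a counting interval of 175 to 2480. In the list of 16 tested, 5 were higher and 1 lower, that one being Thbs1. Cdkn2a, the cell cycle inhibitor locus of p16 and p19, had 15.7, 22.96 and 35.01 CPM in IL-33 stage IV against 0.121, 0.229 and 0 CPM in steady state stage III, a ratio of 218 with an interval of 74.2 to 1060. Cdk6 was 3.17-fold higher (adjusted p = 0.00265), and Lmna and Sun1 of the nuclear lamina and envelope were 15.5-fold and 2.16-fold higher (adjusted p = 0.00189 and 0.00859).

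The metabolic lists differed from each other in how many members were called. Their background is the share over all genes tested, 6.3% higher and 4.54% lower. Of 28 genes of glycolysis and the pentose phosphate pathway 4 were higher and 3 lower. Pfkp, a phosphofructokinase, had 170, 187 and 115 CPM in IL-33 stage IV against 71.0, 60.3 and 73.5 CPM in steady state stage III (2.3-fold higher, adjusted p = 0.00714). Hk3, a hexokinase, was 2.49-fold lower (adjusted p = 0.00783) and Pgk1, a phosphoglycerate kinase, 1.91-fold lower (adjusted p = 0.00905). Both were lower still in steady state stage IV. Hk3 had 104, 138 and 107 CPM in IL-33 stage IV and 65.2 to 103 CPM in steady state stage IV. Pgk1 had 166, 241 and 168 CPM in IL-33 stage IV and 83.8 to 150 CPM in steady state stage IV. Hk3 lost the call without the first steady state pool (adjusted p = 0.0605), and Pgk1 without the first or the third IL-33 pool (up to 0.0613). For the list, 2 were higher without the third steady state pool, and 1 was lower without the first steady state or the third IL-33 pool. Of 51 nuclear genes of oxidative phosphorylation 2 were lower, near the 4.54% called lower over all genes, and 1 was lower without the third steady state pool, where 1 was also higher, or without any one IL-33 pool. Of 26 antioxidant and Nrf2 genes 3 were higher and 2 lower, or 1 higher and 1 lower without the second IL-33 pool and 1 lower without the third IL-33 pool. Of 19 genes of fatty acid synthesis and storage 0 passed with edgeR, 5 had an unadjusted p under 0.05, and DESeq2 and limma-voom each called 2. Without the first steady state pool 3 of them were called higher, and without the first IL-33 pool 2. Of 20 genes of haem synthesis and iron uptake 1 was higher and 3 lower, or 2 higher without the first steady state or the first IL-33 pool. Fech, which inserts the iron, was 2.63-fold higher (adjusted p = 0.000141), while Tfrc, the transferrin receptor, Alad and Slc25a37 were 7.79-fold, 4.37-fold and 3.62-fold lower (adjusted p between 0.00019 and 0.000562). Alas1, the first enzyme, was at 761, 871 and 735 CPM in IL-33 stage IV and 974, 630 and 1195 CPM in steady state stage III, not called (adjusted p = 0.522). The microsomal glutathione transferases went opposite ways: Mgst1 had 270, 306 and 270 CPM in IL-33 stage IV against 944, 784 and 1232 CPM in steady state stage III, and Mgst2 had 131, 119 and 153 CPM in IL-33 stage IV against 11.5, 23.1 and 19.5 CPM in steady state stage III (adjusted p = 6.12e-05 and 6.58e-05).

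**Figure D5:**
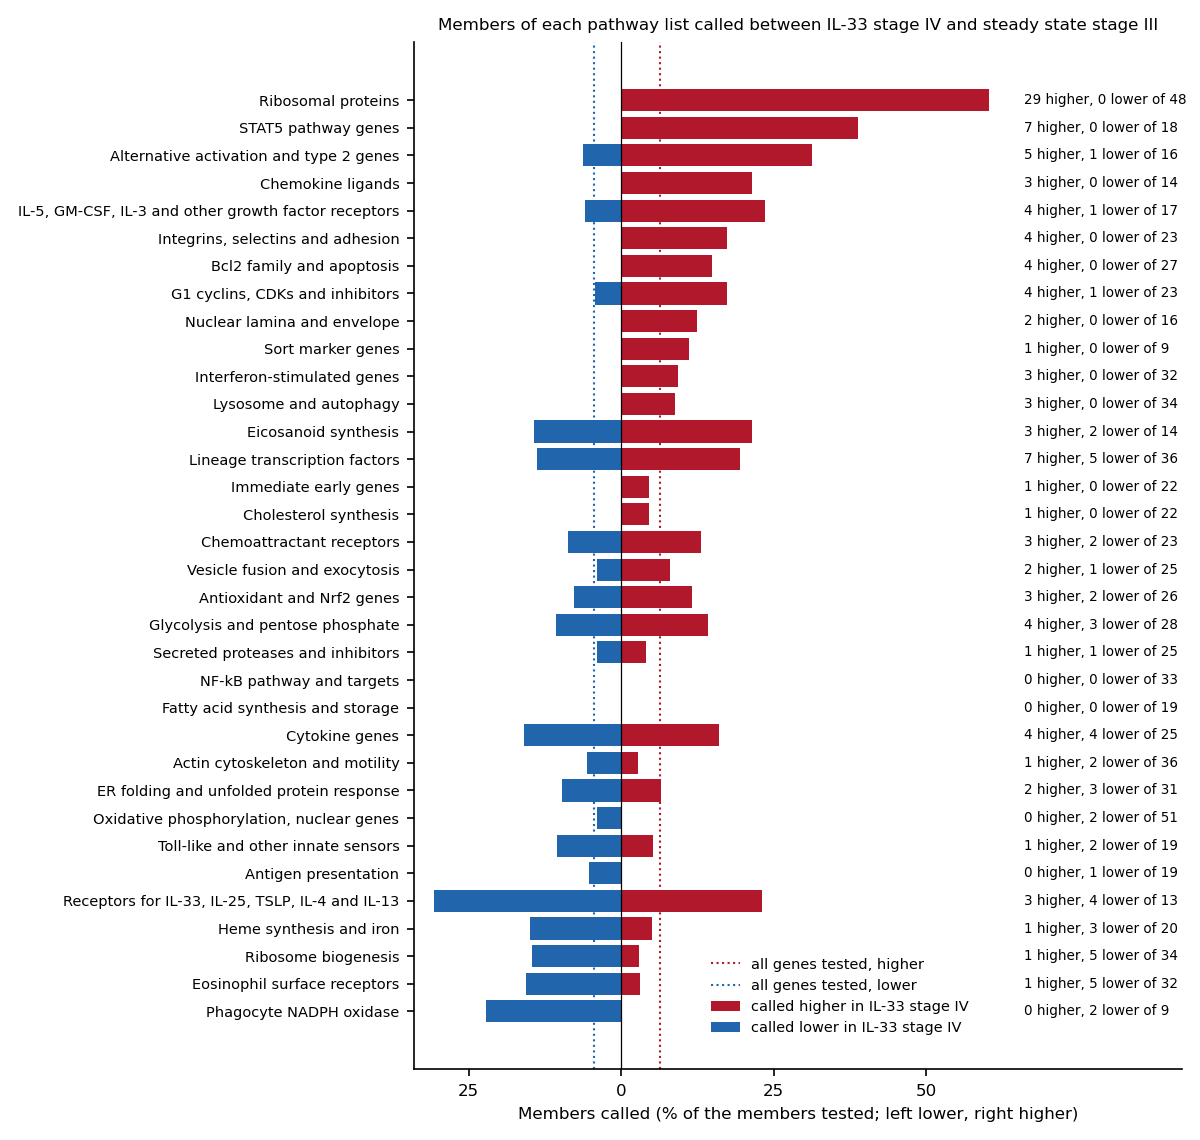
Share of the tested members of each of the 34 pathway lists called higher (red, right) or lower (blue, left) in IL-33 stage IV against steady state stage III, with the counts printed beside the bars; dotted lines mark the shares over all genes tested (6.3% higher, 4.54% lower). Ribosomal protein genes (29 of 48 higher) and STAT5 pathway genes (7 of 18 higher) have the longest bars on the right.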

How the data were processed

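Each deposited file gives 1 raw count of reads for every gene of 1 library. Per the labels' protocols, cDNA came from the SMART-Seq v4 kit and was tagged with Nextera XT, neither of which marks the strand, so overlapping and antisense genes cannot be told apart. Per the submitters' processing notes, STAR 2.6.1a and the build mm10 were used, and DESeq2 by the authors. The sources used here do not name the counting tool or the annotation. Each file had 24982 gene symbols, and the entries for reads with no feature and ambiguous reads, which name no gene, stayed out of library sizes and tests.

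The analysis used edgeR 4.0.16 in R 4.3.3: filtering by group over the 24 libraries, TMM scaling, 1 quasi-likelihood fit of the 8 groups, the contrast of the 2 groups, and Benjamini-Hochberg adjustment over 12743 genes with a threshold of 0.05. The standard error (SE) is the size of the log2 fold change divided by the root of F. CPM levels carry the TMM scaling. All groups share 1 estimate of the spread. The same test on simulated counts with known changes in this contrast was run first. Positions came from GENCODE M21, matched by symbol (97.9%), and promoters from RefSeq. Floors of 3 counts over a group and 95% intervals cover counting error only. Replicates of each group differed by more than counting error, and none was a copy.

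Named genes were those that passed the threshold without overlap and averaged 20 CPM in 1 group (the 10 largest rises and falls, passing over predicted genes), up to 4 called members of each list with the smallest adjusted p, and a panel kept whatever its result. A few genes met this rule but are not reported here. Others, named for their role or chosen after their values were seen, are Atf3, Kif23, Rfc2, Il1rap, Il13ra1, Il18rap, Mcpt8, Fcer1a, Cma1, Ltf, Ly6g, Camp and Retnlg. The groups, lists and genes were chosen with earlier results of these data known, so no list count is independent evidence. Alternatives were DESeq2 1.42.0, limma-voom (limma 3.58.1), other scalings and filters, the 6 libraries alone, a replicate block and leaving libraries out. Figures used matplotlib.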

Additional observations from a re-analysis of the deposited data

How the results depend on the processing

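The 1382 genes called became 1981 with DESeq2 (897 of them lower), 856 in a fit of the 6 libraries alone (525 higher, 331 lower) and between 858 and 1301 with each library left out in turn (519 to 710 higher, 339 to 591 lower), the lowest without the second IL-33 stage IV pool. The fit of 6 libraries has fewer samples to estimate the spread. Replicate numbers did not pair the libraries across conditions (correlations of deviations 0.032, -0.0078 and 0.057 for equal numbers), so the block serves as an alternative: with it 1583 genes were called in the fit of 24 libraries and 755 in that of 6 (480 higher, 275 lower). The other alternatives kept the 3 counts within 1.5 times. Of the 97 called genes of the named set, 80 kept direction and call under all 17 alternatives and 17 lost the call under at least 1. For Il13 and Ltc4s that 1 was the replicate block in the fit of the 6 libraries (adjusted p = 0.0731 and 0.0736). Of genes not called, Ccr3 passed under 4 alternatives (adjusted p down to 0.00365), Bcl2 under both limma-voom fits, and Cd274 without the third steady state pools (adjusted p = 0.0353). No called gene reversed. The estimate of Gata1 lay between -0.228 and 0.0081 with each library left out, reversing without the first steady state stage III pool and, at 0.0041, without the third IL-33 stage IV pool. That of Alas1 reversed to 0.027 without the third steady state pools. Neither gene was called. The largest rises, at 0 in steady state stage III, are ranked by fold changes that depend on the prior count. Depth limits genes of a few CPM, where calls rest on few reads.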

Other observations

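Further genes of the same contrast concern secretion, lymphoid and natural killer markers and the AP-1 genes. Snap23, which fuses vesicles with the plasma membrane, was 2.02-fold higher in IL-33 stage IV (log2 fold change 1.02, SE 0.20, adjusted p = 0.00164 by edgeR). Cst7, the cysteine protease inhibitor cystatin F, was 2.85-fold higher (adjusted p = 0.000912). Nkg7, known from cytotoxic granules, had 188, 240 and 157 CPM in IL-33 stage IV against 44.7, 12.9 and 53.2 CPM in steady state stage III (adjusted p = 0.000539), and steady state stage I reached 1153 CPM. Adgrg1, an adhesion receptor of natural killer and progenitor cells, was 11.7-fold higher (adjusted p = 0.000932). Its 48.8 to 69.8 CPM in IL-33 stage IV lay below the 70.1 to 120 CPM of steady state stage I. Ltb, encoding lymphotoxin β, was at 376, 478 and 625 CPM in IL-33 stage IV against 190, 234 and 139 CPM in steady state stage III (adjusted p = 0.00236), with 307 to 500 CPM in steady state stage IV. Clec4a2, an inhibitory lectin, was 3.35-fold lower (adjusted p = 0.00504). Cd274, the checkpoint ligand PD-L1, had 20.4, 9.65 and 14.9 CPM in IL-33 stage IV against 0.243, 3.20 and 6.05 CPM in steady state stage III, with no overlap and no call (adjusted p = 0.144), though it was called without the third pool of every steady state stage (adjusted p = 0.0353).

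Of 22 immediate early genes 1 was higher, beside 6.3% of all genes tested. Without the third pool of every steady state stage 7 were higher. Their summed level was 24460, 23160 and 24630 CPM in IL-33 stage IV against 18560, 16810 and 40910 CPM in steady state stage III, the last value being that of the third pool.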
